A study of Mus musculus with 15 samples.

Results

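The livers of 6 mice after Roux-en-Y gastric bypass (RYGB) were compared with those of 4 sham-operated mice whose weight was matched to theirs (BWm), 10 of the 15 arrays of the series. All were males with transgenes for human ApoE*3-Leiden and CETP (apoE3L.CETP), used from an age of 9 to 12 weeks. Their food held 60% fat and 0.25% cholesterol during the 6 weeks before surgery, and they were killed 20 days after it. Bypass connects a small stomach pouch to the jejunum, so that food misses most of the stomach and the duodenum. The other 5 mice had sham surgery and ate freely (Sham AL), and they serve here as the reference that tells which of the compared groups had moved. All groups share the transgenes, the diet, an operation, single housing after it, a glucose tolerance test after it and an insulin sensitivity test on the day before death. No source used here gives the hour of death, the length of any fast before it, or how the BWm mice were fed. Each array measured 1 mouse, which the titles number as a biological replicate. Every gene with 1 symbol was taken, with 1 transcript cluster per gene, which gave 22180 genes, and a gene was called where limma's adjusted p was under 0.05.

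Weight matching is meant to set what bypass does to the liver apart from what being lighter does. How the BWm mice were fed is not given, so food intake and meal times may differ between the groups. The liver makes most plasma proteins in its endoplasmic reticulum (ER), builds and exports cholesterol, and moves between storing fuel after meals and releasing glucose and burning fatty acids between meals. A gene that differs between RYGB and BWm can lie away from Sham AL in RYGB, in BWm or in both, and the Sham AL level shows which. It does not show whether bypass or weight moved the gene. RYGB against Sham AL can hold the effects of bypass, weight and feeding together, and in RYGB these can also cancel.

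Values below are log2 signals, on which 1 unit is a 2-fold change, and an error after a difference is its standard error (SE). The median SE over all genes was 0.135 for RYGB minus BWm, 0.127 for RYGB minus Sham AL and 0.14 for BWm minus Sham AL. Array medians lay between 3.89 and 4.02. Sham AL replicate 4 stood apart, with 662 genes that differed by over 1 log2 unit from the average of the group's other arrays, against 53 to 128 on every other array. It also had a mean of 4.50 for 19 adrenal and brown fat markers against -0.58 to 0.01 on the other 14 arrays. It enters neither the RYGB nor the BWm mean, but it does enter the Sham AL mean and the spread that all comparisons share. Leaving it out can thus change calls between RYGB and BWm too. The count of those calls and the departures are also given without it. The labelled tissue was borne out by albumin (Alb), which measured 12.85 to 12.93 in RYGB and 12.88 to 12.93 in BWm. The mean of 14 hepatocyte markers, relative to the mean of all arrays, lay at -0.16 to -0.01 in RYGB, 0.11 to 0.20 in BWm and -0.14 to 0.03 in Sham AL. Being relative, that mean compares the arrays and does not show the tissue. In a piece of liver, fewer cells of a type and less RNA per cell cannot be told apart. The means of the immune and vascular marker lists are given at the end.

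Between RYGB and BWm, 1411 genes were called (6.36% of those tested), 892 higher (4.02%) and 519 lower (2.34%) in RYGB. Of these, 769 differed at least 1.5-fold (3.47% of those tested), 488 higher (2.2%) and 281 lower (1.27%). All RYGB arrays lay above all BWm arrays for 1044 genes (4.71%) and below them for 645 (2.91%). The count was 930 without BWm replicate 3 and 1544 without Sham AL replicate 4. In the same fit, 306 genes separated RYGB from Sham AL (1.38%), of which 208 were higher (0.938%) and 98 lower (0.442%) in RYGB. In BWm against Sham AL, 629 were called (2.84%), 340 higher (1.53%) and 289 lower (1.3%) in BWm. The count of 306 was 176 without RYGB replicate 4, 200 without RYGB replicate 6 and 144 without Sham AL replicate 2. That of 629 was 284 without BWm replicate 2, 284 without BWm replicate 3 and 382 without Sham AL replicate 2. The split of 340 and 289 became 440 and 183 when array medians were subtracted.

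For each of the 1411 genes, the group that departs from Sham AL was taken as the one called against Sham AL. RYGB alone departed for 165 genes, 126 of them higher and 39 lower in RYGB than in BWm. BWm alone departed for 392 genes, 200 of them higher and 192 lower in RYGB. Both groups departed in opposite directions for 8 genes and in the same direction for 3. Neither group was called against Sham AL for the other 843, and for 811 of those the Sham AL mean lay between the RYGB and BWm means. A missed threshold does not show that a group stayed at the Sham AL level. By distance alone, the BWm mean lay farther from the Sham AL mean for 926 of the 1411 genes and the RYGB mean for 485, where the mean of 4 arrays is less precise than that of 6. Without Sham AL replicate 4 the departures were 177 for RYGB alone, 334 for BWm alone, 14 for both and 1019 for neither. RYGB alone departed for 95 genes without RYGB replicate 4 and 87 without Sham AL replicate 2. BWm alone departed for 178 without BWm replicate 2, 180 without BWm replicate 3 and 261 without Sham AL replicate 2. Both departed for 24 without RYGB replicate 1, and for 4 to 7 without BWm replicate 2 or 3, replicate 2, 4 or 6 of RYGB, or 2 or 3 of Sham AL. The 3 comparisons share arrays, so the departure of a gene and its difference between RYGB and BWm are not independent results.

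**Figure D1:**
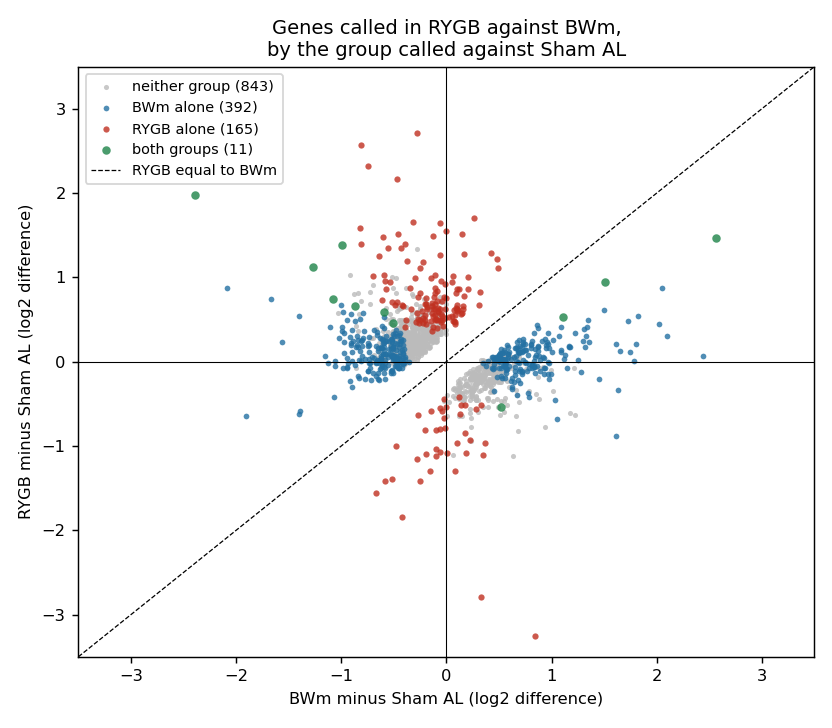
Each point is a gene called between RYGB and BWm (1411 in all), with its BWm minus Sham AL difference on the x axis and its RYGB minus Sham AL difference on the y axis, both in log2 units, coloured by the group called against Sham AL. Points near the horizontal line departed in BWm (392 genes), points near the vertical line departed in RYGB (165 genes), and most of the 843 genes called for neither group lie in the upper left or lower right, with Sham AL between the compared groups.

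Where RYGB alone departed, the largest differences were in a relative of the iron hormone hepcidin, a calcium-binding protein, a fatty acid elongase, a sterol enzyme and a cystine transporter. Hamp2, the second hepcidin gene of the mouse, measured 9.0, 7.83, 8.21, 8.31 and 8.53 on the 5 Sham AL arrays and 9.20, 9.06, 9.06 and 9.53 on the 4 BWm arrays. Hamp2 ran from 3.60 to 6.98 (median 5.26) on the 6 RYGB arrays. Every RYGB array lay below every other array, and the difference from BWm was 17-fold (log2 -4.09 ± 0.45 SE, adjusted p = 4.5e-05). RYGB lay log2 -3.25 ± 0.42 from Sham AL, and BWm lay log2 0.84 ± 0.47 from it without a call, although its 4 arrays were all above the Sham AL arrays. Its neighbour Hamp, hepcidin itself, did not pass between RYGB and BWm (log2 -0.34 ± 0.24 SE, adjusted p = 0.52), and near-identical copies of this family can share probe signal. S100g, which binds calcium in the absorbing gut, measured 4.46, 4.75, 5.94, 5.52 and 5.74 on the 5 Sham AL arrays and 4.99, 4.46, 4.13 and 4.31 on the 4 BWm arrays. S100g ran from 6.99 to 8.33 (median 8.06) on the 6 RYGB arrays. All RYGB arrays lay above all others, 10.4-fold above BWm (log2 3.38 ± 0.30 SE, adjusted p = 1.3e-05) and log2 2.57 ± 0.28 above Sham AL. Slc7a11, the cystine importer that feeds glutathione synthesis, measured 2.90, 3.24, 3.91, 3.58 and 3.72 on the 5 Sham AL arrays and 3.36, 3.41, 2.89 and 3.08 on the 4 BWm arrays. Slc7a11 ran from 4.29 to 6.98 (median 6.46) on the 6 RYGB arrays. RYGB replicate 1 held the low value of 4.29, still above all BWm arrays, and the difference was 7.96-fold (log2 2.99 ± 0.37 SE, adjusted p = 0.00012). Cd14, a receptor for bacterial lipopolysaccharide, measured 5.33, 4.87, 5.54, 5.49 and 5.62 on the 5 Sham AL arrays and 5.33, 5.18, 4.75 and 4.34 on the 4 BWm arrays. Cd14 ran from 6.14 to 8.56 (median 7.75) on the 6 RYGB arrays, without overlap (log2 2.64 ± 0.36 SE, adjusted p = 0.00023). For Slc7a11 all Sham AL and BWm signals lay under 4, near the array medians, where a probe set carries mostly background, so its fold may be understated.

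The departures of RYGB for Hamp2, S100g, Sqle, Slc7a11, Cd14, Nupr1, Abcc4, Atf3, Nsdhl, Ddit3, Trib3, Fgf21 and Apcs were called in all 15 fits that left out 1 array. Abcc4, an exporter of bile acids and nucleotides at the blood side of the hepatocyte, was log2 2.07 ± 0.30 higher than in BWm and log2 1.48 ± 0.28 higher than in Sham AL. Nrg1, a growth factor of the epidermal growth factor family, was log2 1.90 ± 0.26 higher, with a departure of RYGB of log2 1.25 ± 0.24 that was not called without Sham AL replicate 2. Among genes lower in RYGB, Inmt, a methyltransferase of indole amines, was log2 -1.38 ± 0.27 against BWm and log2 -1.30 ± 0.25 against Sham AL. Cyp2c37 (log2 -1.34 ± 0.21), Acaa1b (log2 -1.13 ± 0.19), G0s2 (log2 -1.26 ± 0.21) and Scd1 (log2 -0.88 ± 0.15) were lower than in BWm with RYGB as the called departure in all 15 of those fits. Acaa1b is a peroxisomal thiolase, G0s2 an inhibitor of the lipase ATGL, and Scd1 the stearoyl-CoA desaturase. Elovl3, which lengthens very long fatty acids, measured 9.52, 9.80, 9.38, 9.76 and 9.25 on the 5 Sham AL arrays and 9.80, 8.30, 11.66 and 9.72 on the 4 BWm arrays. Elovl3 ran from 5.13 to 9.21 (median 5.89) on the 6 RYGB arrays. RYGB replicates 1 and 2 lay at 9.21 and 8.79, inside the BWm range, so the large mean difference (log2 -3.12 ± 0.71 SE, adjusted p = 0.012) rested on the other 4 RYGB arrays. It was not called without BWm replicate 3 (adjusted p as high as 0.061), and the departure of RYGB was lost in 11 of the 15 fits.

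BWm alone departed for more genes, among them thioesterases, clock genes, keratins and 9 of the 19 called ER chaperones. Acot1, a cytosolic thioesterase induced by fasting and fatty acids, measured 6.30, 5.92, 5.66, 5.12 and 6.26 on the 5 Sham AL arrays and 7.63, 9.54, 8.75 and 7.27 on the 4 BWm arrays. Acot1 ran from 5.61 to 6.48 (median 5.87) on the 6 RYGB arrays. All 4 BWm arrays stood above all others, while RYGB and Sham AL overlapped: RYGB minus BWm was log2 -2.37 ± 0.34 SE, adjusted p = 0.00034, BWm minus Sham AL log2 2.44 ± 0.35 and RYGB minus Sham AL log2 0.07 ± 0.32. Acot3, its peroxisomal relative, followed with log2 -1.80 ± 0.31 between RYGB and BWm and log2 2.10 ± 0.32 between BWm and Sham AL. Serpina7, thyroxine-binding globulin, measured 8.64, 9.68, 9.73, 8.87 and 9.46 on the 5 Sham AL arrays and 8.0, 7.12, 7.03 and 8.28 on the 4 BWm arrays. Serpina7 ran from 9.47 to 10.43 (median 10.11) on the 6 RYGB arrays. Here the 4 BWm arrays lay below all others, 5.29-fold under RYGB (log2 2.40 ± 0.26 SE, adjusted p = 4.5e-05), with a departure of log2 -1.67 ± 0.27 from Sham AL. Anxa2, a membrane-binding annexin, measured 5.76, 6.20, 6.63, 7.33 and 6.39 on the 5 Sham AL arrays and 5.14, 5.04, 4.45 and 4.99 on the 4 BWm arrays. Anxa2 ran from 5.87 to 7.38 (median 6.79) on the 6 RYGB arrays. Its RYGB and Sham AL arrays overlapped and all BWm arrays lay below both groups (log2 1.79 ± 0.27 SE, adjusted p = 0.00047). Gstm4, a glutathione transferase, was log2 1.95 ± 0.21 higher in RYGB than in BWm, with BWm at log2 -1.40 ± 0.21 from Sham AL. Fmo2, a flavin monooxygenase, was higher in BWm than in RYGB (log2 -1.56 ± 0.26) and than in Sham AL (log2 2.02 ± 0.27). Sftpa1, a surfactant protein best known from lung, was log2 -1.78 ± 0.27 lower in RYGB than in BWm, with RYGB at log2 0.01 ± 0.26 from Sham AL. For Acot1, Acot3, Serpina7, Anxa2, Gstm4, Fmo2 and Sftpa1, BWm alone was the called departure in all 15 leave-out fits. For Ly6d, a lymphocyte and epithelial surface antigen with log2 2.96 ± 0.48 SE, adjusted p = 0.00084 between RYGB and BWm, the departing group changed without replicate 1, 2 or 3 of BWm or replicate 2, 3 or 4 of Sham AL.

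Both groups departed, in opposite directions, for 7 genes that were higher and 1 that was lower in RYGB. Sprr1a, a cornified envelope protein that stressed epithelia induce, measured 5.62, 5.32, 6.77, 6.68 and 5.92 on the 5 Sham AL arrays and 4.77, 3.86, 3.0 and 3.07 on the 4 BWm arrays. Sprr1a ran from 6.80 to 9.20 (median 8.14) on the 6 RYGB arrays. The groups formed 3 levels, with all RYGB arrays above all BWm arrays (log2 4.37 ± 0.41 SE, adjusted p = 1.6e-05), RYGB at log2 1.98 ± 0.39 and BWm at log2 -2.39 ± 0.43 from Sham AL. Its departure of RYGB was not called without Sham AL replicate 2. Srxn1, sulfiredoxin, which repairs peroxiredoxins, measured 6.96, 7.04, 7.39, 7.36 and 7.55 on the 5 Sham AL arrays and 6.38, 5.74, 5.67 and 6.19 on the 4 BWm arrays. Srxn1 ran from 7.62 to 8.94 (median 8.36) on the 6 RYGB arrays, without overlap between RYGB and BWm (log2 2.38 ± 0.21 SE, adjusted p = 1.3e-05). Fkbp11, a prolyl isomerase of the ER, differed by log2 2.38 ± 0.19 SE, adjusted p = 4.1e-06, with RYGB log2 1.39 ± 0.17 above Sham AL and BWm log2 -0.99 ± 0.19 from it. Srxn1 and Fkbp11 kept both departures in all 15 leave-out fits. Sdf2l1, an ER chaperone partner (log2 1.82 ± 0.17), Arfgap3 (log2 1.53 ± 0.15) and Tmed3 (log2 1.17 ± 0.13) of ER-Golgi transport and the ER oxidase Ero1b (log2 0.96 ± 0.12) were the other genes higher in RYGB, and their pair of departures was lost in 5, 5, 10 and 13 of those fits. Gpat4, a glycerol-3-phosphate acyltransferase that starts triglyceride synthesis, was the gene lower in RYGB (log2 -1.06 ± 0.11 SE, adjusted p = 2.7e-05), with departures of log2 -0.54 ± 0.10 for RYGB and log2 0.52 ± 0.11 for BWm, and BWm was not called without BWm replicate 2.

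Both groups were called above Sham AL for Lepr, Fam234b and Rdh16f2, with BWm the higher. Lepr, the leptin receptor, measured 3.75, 4.36, 5.22, 4.23 and 4.68 on the 5 Sham AL arrays and 6.67, 7.47, 7.26 and 6.63 on the 4 BWm arrays. Lepr ran from 5.36 to 6.66 (median 5.72) on the 6 RYGB arrays. The highest RYGB array, replicate 4 at 6.66, lay just above the lowest BWm array, while all arrays of both groups lay above all Sham AL arrays. RYGB minus BWm was log2 -1.09 ± 0.29 SE, adjusted p = 0.031, against log2 1.47 ± 0.27 and log2 2.56 ± 0.30 for the departures of RYGB and BWm. The RYGB against BWm call of Lepr was lost without BWm replicate 2 or 3 or RYGB replicate 1, 2, 5 or 6 (adjusted p as high as 0.12), and that of Fam234b (log2 -0.57 ± 0.14) without BWm replicate 2 or 3 (adjusted p as high as 0.071). For Fam234b the departing group changed in 10 of the 15 leave-out fits. Rdh16f2, a retinol dehydrogenase relative (log2 -0.56 ± 0.15), lost its call in 7 of 15 fits (adjusted p as high as 0.12).

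Neither group was called against Sham AL for Fdps, farnesyl diphosphate synthase of the cholesterol pathway, which measured 7.32, 7.91, 6.96, 7.96 and 7.47 on the 5 Sham AL arrays and 7.23, 6.63, 5.86 and 6.67 on the 4 BWm arrays. Fdps ran from 7.54 to 9.22 (median 8.59) on the 6 RYGB arrays. RYGB lay above BWm on all arrays (log2 1.96 ± 0.30 SE, adjusted p = 0.0005), with RYGB at log2 1.03 ± 0.28 and BWm at log2 -0.92 ± 0.31 from Sham AL. For Fdps the departing group changed without replicate 3 of RYGB. G6pc, the glucose-6-phosphatase that releases glucose, measured 10.65, 10.48, 10.65, 10.12 and 10.29 on the 5 Sham AL arrays and 11.27, 11.48, 11.65 and 11.10 on the 4 BWm arrays. G6pc ran from 8.07 to 10.74 (median 9.82) on the 6 RYGB arrays. Its BWm arrays lay above all RYGB (log2 -1.70 ± 0.39 SE, adjusted p = 0.012) and all Sham AL arrays, and RYGB overlapped with Sham AL, with BWm at log2 0.94 ± 0.41 and RYGB at log2 -0.77 ± 0.37. Mfsd2a, a lysophospholipid transporter that fasting induces, was also lower in RYGB than in BWm (log2 -1.75 ± 0.37 between RYGB and BWm, log2 0.63 ± 0.38 for BWm and log2 -1.12 ± 0.34 for RYGB). Mmp12, a macrophage elastase (log2 1.61 ± 0.29), and Tnfrsf10b, a death receptor (log2 1.65 ± 0.24), were higher in RYGB than in BWm without overlap of the arrays, and neither departure was called. For Mmp12 the departing group changed without replicate 1 of Sham AL. For Tnfrsf10b the departing group changed without replicate 1 of RYGB or replicate 1 or 4 of Sham AL.

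**Figure D2:**
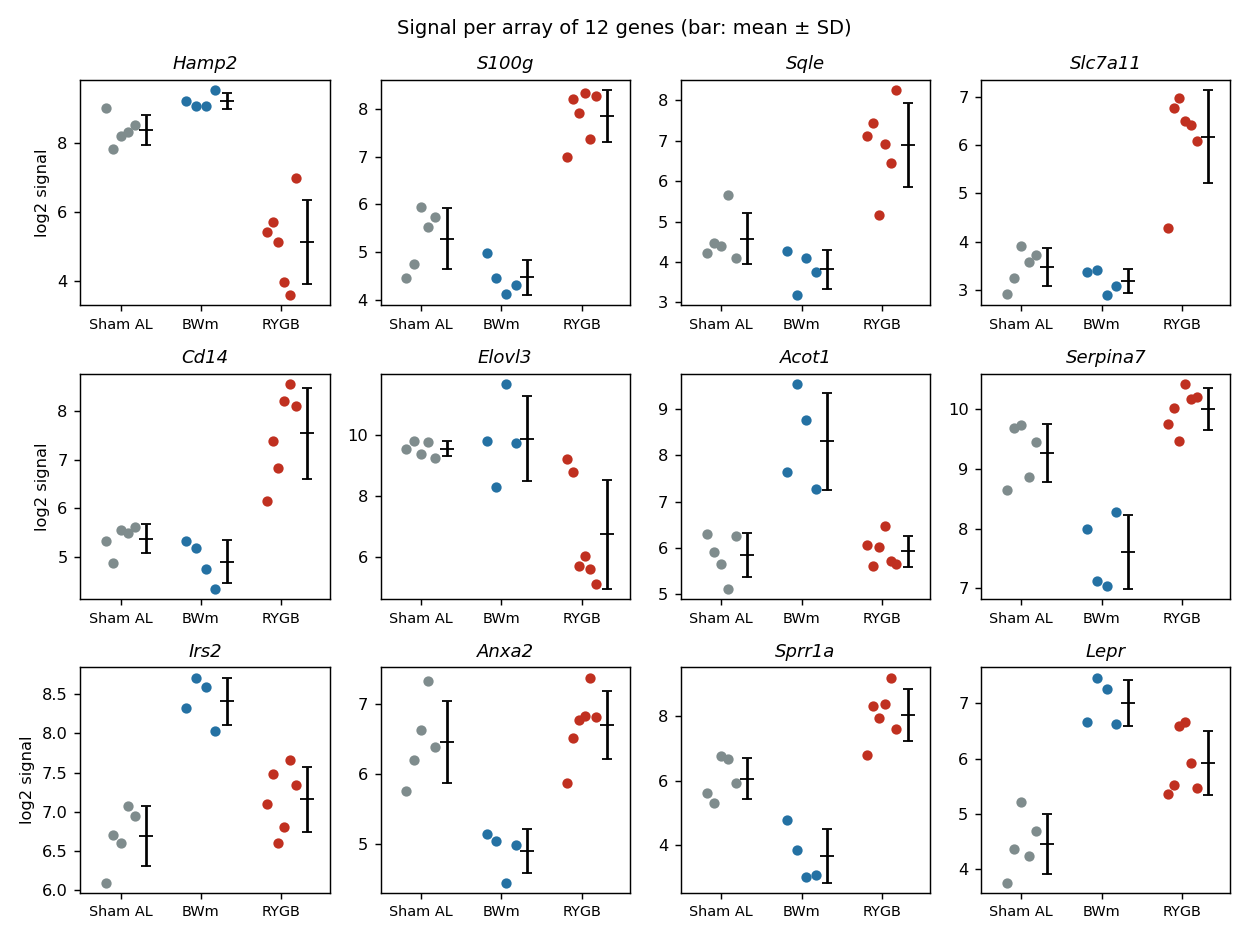
The log2 signal of 12 genes on each array, with Sham AL (grey), BWm (blue) and RYGB (red) along the x axis and the mean ± SD of each group as a black bar. Hamp2, S100g, Sqle, Slc7a11 and Cd14 were called against Sham AL in RYGB alone, Acot1, Serpina7, Irs2 and Anxa2 in BWm alone, Sprr1a and Lepr in both, and Elovl3 split the RYGB arrays, with replicates 1 and 2 at 9.21 and 8.79.

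Genes of the secretory pathway were higher in RYGB than in BWm wherever they were called, with 1 exception among the 5 lists. Proteins bound for plasma enter the ER through the Sec61 channel, receive sugar chains, are folded by chaperones and disulfide isomerases, and leave in COPII vesicles, while COPI vesicles carry proteins back. Of ER chaperones and folding factors, 19 of 25 measured genes were higher in RYGB than in BWm and 0 were lower, against 4.02% and 2.34% of all genes. The list median was log2 0.72 for RYGB minus BWm, 0.26 for RYGB minus Sham AL and -0.49 for BWm minus Sham AL, against 0.00, 0.00 and -0.01 over all genes. The departing group was RYGB alone for 3, BWm alone for 9, both groups, in opposite directions, for 3 and neither group for 4. Hspa5 (BiP), the main Hsp70 chaperone of the ER, measured 8.97, 9.12, 9.03, 8.94 and 9.19 on the 5 Sham AL arrays and 8.53, 8.11, 7.97 and 7.97 on the 4 BWm arrays. Hspa5 ran from 9.08 to 9.82 (median 9.35) on the 6 RYGB arrays. All BWm arrays lay below all RYGB arrays (log2 1.28 ± 0.15 SE, adjusted p = 7.4e-05), and BWm departed from Sham AL by log2 -0.90 ± 0.15 against log2 0.38 ± 0.14 for RYGB. Hyou1, its nucleotide exchange partner, measured 9.69, 9.69, 9.49, 9.55 and 9.85 on the 5 Sham AL arrays and 9.08, 8.36, 8.50 and 8.26 on the 4 BWm arrays. Hyou1 ran from 9.74 to 10.34 (median 10.08) on the 6 RYGB arrays, again with BWm low (log2 1.51 ± 0.15 SE, adjusted p = 1.9e-05). Manf, a secreted ER stress factor (log2 1.39 ± 0.14; BWm log2 -0.99 ± 0.15), was also a departure of BWm alone, whereas Creld2, an ER isomerase (log2 1.54 ± 0.16; RYGB log2 0.96 ± 0.15), and Dnajb9, a BiP co-chaperone (log2 0.86 ± 0.13; RYGB log2 0.58 ± 0.12), departed in RYGB alone. For Creld2 the departing group changed without replicate 1 of BWm. For Dnajb9 the departing group changed without replicate 4 of RYGB or replicate 2 of Sham AL.

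The promoters of these chaperones were searched for the ER stress response element, the site of ATF6 and NF-Y, because 19 of the 25 genes were called in 1 direction. The letters searched were CCAAT and CCACG with 9 bases between them, on either strand in the 250 bases before the start site, in RefSeq promoters of GRCm38.p6. The element was present in 8 of 22 chaperone promoters (36.4%) against 27 of 16918 promoters of all genes (0.16%), and a match is a description, not evidence of binding. Shares over a gene list, here and below, are properties of its promoters and would be the same whatever the arrays showed. They therefore do not bear on the difference between RYGB and BWm. Of genes higher in RYGB for which BWm alone departed, 5 of 164 promoters held the element (3.05%), and 1 of 97 where RYGB alone departed. The stretches of 6 of the 8 chaperones follow, 5′ to 3′ along the gene, with the element in capitals as it reads on that strand.
Hspa5 (chr2:34772000-34772068, plus strand): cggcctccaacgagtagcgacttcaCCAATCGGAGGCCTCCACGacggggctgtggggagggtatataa
Creld2 (chr15:88819495-88819563, plus strand): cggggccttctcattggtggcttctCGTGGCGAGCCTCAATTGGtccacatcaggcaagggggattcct
Hsp90b1 (chr10:86705508-86705576, minus strand): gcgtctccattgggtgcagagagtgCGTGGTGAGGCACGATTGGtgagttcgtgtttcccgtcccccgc
Pdia6 (chr12:17266466-17266534, plus strand): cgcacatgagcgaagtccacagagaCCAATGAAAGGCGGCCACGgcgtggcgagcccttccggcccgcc
Ero1b (chr13:12565657-12565725, plus strand): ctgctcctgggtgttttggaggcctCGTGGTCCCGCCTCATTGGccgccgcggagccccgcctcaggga
Dnajc3 (chr14:118937802-118937870, plus strand): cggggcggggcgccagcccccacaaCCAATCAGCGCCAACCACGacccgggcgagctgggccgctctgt
These 6 genes were chosen because they hold the element. They were higher in RYGB than in BWm by log2 1.28, 1.54, 0.79, 1.02, 0.96 and 0.55 in that order. Their departures were BWm alone, RYGB alone, BWm alone, BWm alone, both and neither. The chaperones with the element that are not shown, Calr and Canx, were higher by log2 0.75 and 0.40. Searched chaperones without it ran from log2 -0.09 (Fkbp14) to 2.38 (Fkbp11), so the element did not mark the largest differences. For Hsp90b1 the departing group changed without replicate 2, 3 or 4 of BWm or replicate 2 or 5 of Sham AL.

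Of genes of ER entry and glycosylation, 21 of 31 measured genes were higher in RYGB than in BWm and 0 were lower, with departures of RYGB alone for 1, BWm alone for 13 and neither group for 7. The list median was log2 0.60 for RYGB minus BWm, 0.25 for RYGB minus Sham AL and -0.37 for BWm minus Sham AL. Gfpt1, which makes the precursor of the sugar chains (log2 1.33 ± 0.14 SE, adjusted p = 3.3e-05), Slc35b1, the ATP importer of the ER (log2 1.31 ± 0.15 SE, adjusted p = 7.9e-05), and Ostc, a subunit of the oligosaccharyltransferase (log2 1.15 ± 0.13 SE, adjusted p = 7.4e-05), had the smallest p. BWm lay log2 -0.97 ± 0.16 and log2 -0.85 ± 0.14 from Sham AL for Slc35b1 and Ostc, and BWm alone was the departure in all 15 leave-out fits for both. For Gfpt1 the departing group changed without replicate 1 of RYGB or replicate 5 of Sham AL. In COPII, COPI and ER-Golgi transport, 29 of 42 measured genes were higher in RYGB than in BWm and 0 were lower, and the count was 19 without BWm replicate 2. Departures were RYGB alone for 0, BWm alone for 7, both groups, in opposite directions, for 2 and neither group for 20, and the BWm mean was farther from Sham AL for 23 of the 29. Sec23b, the inner coat subunit of COPII vesicles, differed by log2 1.11 ± 0.11 SE, adjusted p = 1.6e-05, with BWm at log2 -0.91 ± 0.11 and RYGB at log2 0.20 ± 0.10 from Sham AL. By the mean of the list, relative to all arrays, chaperones lay at 0.17 to 0.40 in RYGB, -0.12 to 0.13 in Sham AL and -0.59 to -0.21 in BWm. BWm replicate 1, at -0.21, was the highest of its group and the other 3 lay between -0.59 and -0.57.

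In the quality control of the ER, departures were called in both groups. Of sensors and effectors of the unfolded protein response, 8 of 15 measured genes were higher in RYGB than in BWm and 1 was lower, with departures of RYGB alone for 2, BWm alone for 2 and neither group for 5. Ddit3 (CHOP), a factor of prolonged stress, was a departure of RYGB alone (log2 1.78 ± 0.29 SE, adjusted p = 0.00084; RYGB log2 1.40 ± 0.27). Wfs1, an ER membrane protein, was one of BWm alone (log2 1.07 ± 0.13 SE, adjusted p = 0.00012; BWm log2 -0.69 ± 0.14), and Xbp1 (log2 0.62 ± 0.12 SE, adjusted p = 0.0028) and Eif2ak3 (PERK; log2 0.73 ± 0.13 SE, adjusted p = 0.0022) one of neither. For Eif2ak3 the departing group changed without replicate 4 of BWm or replicate 1 or 5 of RYGB. Of ER-associated degradation, 7 of 22 measured genes were higher in RYGB than in BWm and 0 were lower, led by Ubxn4 (log2 0.77 ± 0.10 SE, adjusted p = 0.00025) and the ubiquitin ligase Syvn1 (log2 1.08 ± 0.14 SE, adjusted p = 0.00019), both with BWm alone, although that of Ubxn4 was not called without BWm replicate 2. Of proteasome subunits, 8 of 31 measured genes were higher in RYGB than in BWm and 0 were lower, and the BWm mean was farther from Sham AL for all 8. Their count was 3 without BWm replicate 2, 4 without RYGB replicate 3, and 5 without BWm replicate 3 or 4 or RYGB replicate 4 or 6. Psmd14, a deubiquitinase of the lid, had the smallest p (log2 0.65 ± 0.13 SE, adjusted p = 0.0039). For Psmd14 the departing group changed without replicate 3 of BWm.

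**Figure D3:**
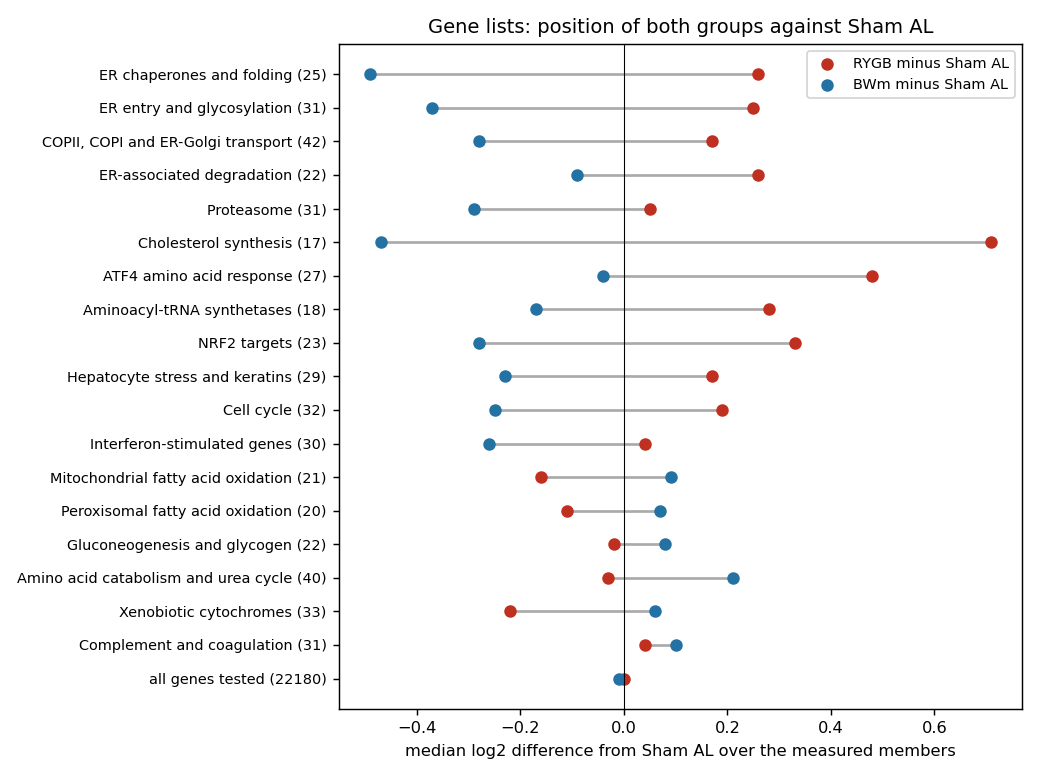
Median log2 difference from Sham AL over the measured members of 18 gene lists and over all genes, for RYGB (red) and BWm (blue), with the number of members in brackets. For ER chaperones BWm lay at -0.49 and RYGB at 0.26, for cholesterol synthesis at -0.47 and 0.71, and for ATF4 targets at -0.04 and 0.48.

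ATF4 switches on genes of amino acid supply when amino acids run short or the ER is stressed. Of its targets, 13 of 27 measured genes were higher in RYGB than in BWm and 0 were lower, and the departing group was RYGB alone for 7, BWm alone for 1 and neither group for 5. The list median was log2 0.57 for RYGB minus BWm, 0.48 for RYGB minus Sham AL and -0.04 for BWm minus Sham AL, and the RYGB mean was farther from Sham AL for 12 of the 13. Nupr1, a stress-induced chromatin protein, measured 5.37, 5.58, 6.12, 6.52 and 6.73 on the 5 Sham AL arrays and 6.14, 4.84, 4.96 and 5.03 on the 4 BWm arrays. Nupr1 ran from 6.70 to 8.39 (median 7.75) on the 6 RYGB arrays. All RYGB arrays lay above all BWm arrays (log2 2.41 ± 0.31 SE, adjusted p = 0.00016), and RYGB departed by log2 1.58 ± 0.29. Atf3 (log2 1.99 ± 0.25 SE, adjusted p = 0.00014), a stress factor, and Trib3 (log2 1.62 ± 0.24 SE, adjusted p = 0.0004), a pseudokinase that binds AKT, were also higher in RYGB, which departed alone. Fgf21, a hormone of fasting and stress, measured 5.36, 5.27, 5.61, 5.53 and 5.10 on the 5 Sham AL arrays and 5.08, 6.05, 5.92 and 5.04 on the 4 BWm arrays. Fgf21 ran from 6.15 to 7.60 (median 6.89) on the 6 RYGB arrays. RYGB lay above both sham groups (log2 1.36 ± 0.25 SE, adjusted p = 0.0022), and BWm lay at log2 0.15 ± 0.26 from Sham AL. Asns, asparagine synthetase (log2 1.33 ± 0.29), departed in RYGB alone, and Psat1 of serine synthesis (log2 1.37 ± 0.23) in neither group. For Asns the departing group changed in 7 of the 15 leave-out fits. For Psat1 the departing group changed without replicate 1 or 5 of RYGB or replicate 4 of Sham AL. The gene for the factor itself, Atf4, differed by log2 0.42 ± 0.12 and lost its call in 9 of 15 leave-out fits (adjusted p as high as 0.15). Of aminoacyl-tRNA synthetases, 10 of 18 measured genes were higher in RYGB than in BWm and 0 were lower, with departures of RYGB alone for 5, BWm alone for 2 and neither group for 3. Sars (log2 0.75 ± 0.12) departed in RYGB alone, though not without Sham AL replicate 2, and the departing group of Nars (log2 0.80 ± 0.10) and Lars (log2 0.85 ± 0.12) changed in 13 and 9 of those fits.

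The composite element of ATF4 and C/EBP factors was searched as TGATGNAAT on either strand in the same windows. It was present in 2 of 23 promoters of the list against 0.798% of all promoters. The pair is Nupr1 and Fgf21, whose stretches are shown with the element in capitals.
Nupr1 (chr7:126625548-126625606, minus strand): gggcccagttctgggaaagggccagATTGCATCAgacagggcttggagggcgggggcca
Fgf21 (chr7:45615597-45615655, minus strand): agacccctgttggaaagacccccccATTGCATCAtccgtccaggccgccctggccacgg
Both genes departed in RYGB alone, and in both the capitals read the element on the strand opposite to the gene.

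NRF2 drives genes of the defence against oxidants. Of its targets, 12 of 23 measured genes were higher in RYGB than in BWm and 0 were lower, with departures of RYGB alone for 6, BWm alone for 2, both groups, in opposite directions, for 1 and neither group for 3. The list median was log2 0.67 for RYGB minus BWm, 0.33 for RYGB minus Sham AL and -0.28 for BWm minus Sham AL. Cbr3, a carbonyl reductase, differed by log2 1.97 ± 0.39 SE, adjusted p = 0.0042, and its departure of RYGB was lost in 12 of 15 leave-out fits. Sqstm1 (p62), an adaptor of autophagy, differed by log2 0.93 ± 0.11 SE, adjusted p = 0.00011 with RYGB as the called departure in all of them. Nqo1, a quinone reductase, differed by log2 1.62 ± 0.25, and Gclc of glutathione synthesis by log2 0.68 ± 0.13. RYGB alone departed for both Nqo1 and Gclc. For Nqo1 the departing group changed in 7 of the 15 leave-out fits. For Gclc the departing group changed without replicate 3, 4 or 6 of RYGB or replicate 2, 3 or 4 of Sham AL. Nfe2l2, the gene for NRF2, lay at log2 0.16 ± 0.13 SE, adjusted p = 0.58. By the mean of the list, RYGB replicate 1 lay at -0.07, within the Sham AL range of -0.21 to 0.03, while the remaining 5 lay between 0.38 and 0.61. All BWm arrays lay lower, at -0.48 to -0.33. Of glutathione S-transferases, 4 of 18 measured genes were higher in RYGB than in BWm and 1 was lower, and the count was 3 without replicate 2 or 4 of BWm in all. Gstm3 (log2 1.67 ± 0.30 SE, adjusted p = 0.0018) and Gstm1 (log2 0.56 ± 0.13 SE, adjusted p = 0.015) were called with neither departure, and members of this family can share probe signal. For Gstm3 the departing group changed without replicate 1 of RYGB. Pgd, which supplies NADPH in the pentose phosphate pathway, was log2 1.67 ± 0.22 higher in RYGB than in BWm and was the 1 gene called of the 7 on its list. Its departure was that of BWm (log2 -1.0 ± 0.23; RYGB log2 0.67 ± 0.21), which was not called without BWm replicate 2 or 3, and both groups were called without RYGB replicate 1 or Sham AL replicate 4.

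Cholesterol synthesis runs from acetyl-CoA through mevalonate and squalene to cholesterol, and SREBP2 drives its genes when sterols in the ER run low. Of its enzymes, 11 of 17 measured genes were higher in RYGB than in BWm and 0 were lower, and the departing group was RYGB alone for 6, BWm alone for 0 and neither group for 5. The list median was log2 1.05 for RYGB minus BWm, 0.71 for RYGB minus Sham AL and -0.47 for BWm minus Sham AL, the largest list median of the 59 lists between RYGB and BWm. Sqle, squalene epoxidase, measured 4.22, 4.47, 4.40, 5.66 and 4.10 on the 5 Sham AL arrays and 4.26, 3.18, 4.09 and 3.74 on the 4 BWm arrays. Sqle ran from 5.17 to 8.26 (median 7.02) on the 6 RYGB arrays. All RYGB arrays except the lowest, 5.17 on RYGB replicate 3, lay above every sham array (log2 3.07 ± 0.43 SE, adjusted p = 0.00028). Cyp51, which removes a methyl group from lanosterol (log2 2.21 ± 0.31 SE, adjusted p = 0.00026), and Nsdhl (log2 1.91 ± 0.28 SE, adjusted p = 0.00044) departed in RYGB, Cyp51 not without Sham AL replicate 3. Hmgcs1 at the start of the pathway (log2 1.56 ± 0.28) and Msmo1 near its end (log2 1.52 ± 0.35) were called with neither departure, and Msmo1 was not called without BWm replicate 2 or 3 (adjusted p as high as 0.064). For Hmgcs1 the departing group changed without replicate 3 of RYGB. Srebf2, the gene for SREBP2, was log2 0.58 ± 0.15 higher, and lost its call without BWm replicate 1, 2 or 3 or RYGB replicate 2 (adjusted p as high as 0.072). Among genes of sterol sensing, uptake and export, 2 of 16 were higher and 3 lower, and the count was 2 without replicate 2 or 3 of BWm and 3 without replicate 1 or 4 of BWm in all. Abcg5 (log2 -0.90 ± 0.22) and Abcg8 (log2 -0.94 ± 0.22), which together export sterols into bile, were lower in RYGB than in BWm. Abcg5 was not called without BWm replicate 1 or 4 (adjusted p as high as 0.065) and Abcg8 not without BWm replicate 4 (adjusted p as high as 0.057).

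**Figure D4:**
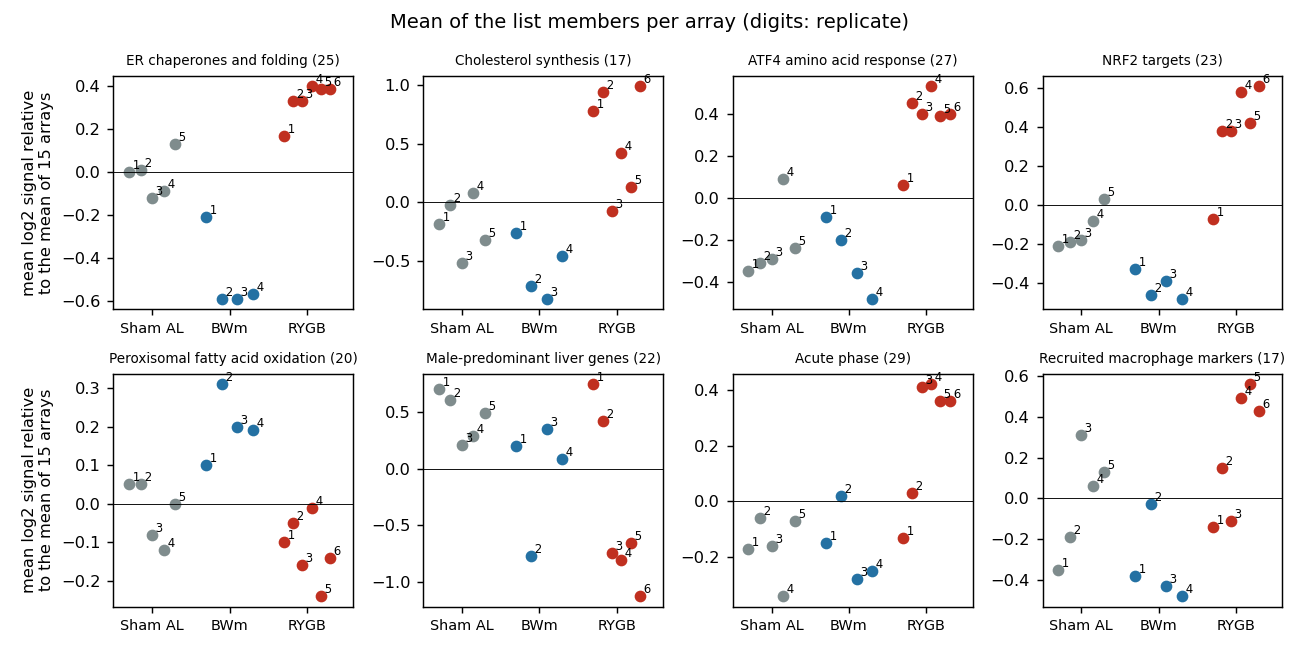
Mean log2 signal of the members of 8 gene lists on each array, relative to each gene's mean over 15 arrays, with the replicate number beside each point and the number of members in the panel titles. ER chaperones separate BWm (-0.59 to -0.21) from RYGB (0.17 to 0.40), and male-predominant genes split the RYGB arrays, with replicates 1 and 2 at 0.75 and 0.42 and replicates 3 to 6 between -1.13 and -0.66.

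Where genes of fatty acid oxidation and of the thioesterases were called, they were lower in RYGB than in BWm. Peroxisomal oxidation had 6 of 20 lower in RYGB and 0 higher, with departures of RYGB alone for 2, BWm alone for 3 and neither group for 1. Ehhadh, the bifunctional enzyme of peroxisomes (log2 -0.83 ± 0.14 SE, adjusted p = 0.0013), departed in BWm (log2 0.72 ± 0.15), not called without BWm replicate 3. Pex11a, a peroxisome proliferation factor (log2 -1.04 ± 0.21), departed in RYGB, a departure lost in 9 of 15 leave-out fits. By the mean of this list all 6 RYGB arrays (-0.24 to -0.01) lay below all BWm arrays (0.10 to 0.31), with Sham AL at -0.12 to 0.05. Mitochondrial oxidation had 3 of 21 lower and 0 higher, and the count was 1 without replicate 2 or 3 of BWm or replicate 6 of RYGB. Slc22a5, the carnitine importer, was a departure of BWm alone (log2 -0.99 ± 0.20 SE, adjusted p = 0.0048; BWm log2 0.98 ± 0.21). Cpt1a, the entry step of fatty acids, did not pass (log2 -0.14 ± 0.10 SE, adjusted p = 0.51). Acyl-CoA thioesterases had 4 of 12 lower and 0 higher, all with BWm alone: Acot1, Acot3, Acot4 (log2 -0.94 ± 0.21) and Acot12 (log2 -0.60 ± 0.12), the last not without BWm replicate 2 or 3. Of PPARs and partners, 2 of 13 measured genes were higher in RYGB than in BWm and 4 were lower. Ppara, the fatty acid receptor itself, was log2 -0.57 ± 0.12 with neither departure. Angptl4, a lipoprotein lipase inhibitor, was log2 -1.08 ± 0.16 SE, adjusted p = 0.00034 with BWm at log2 0.93 ± 0.16. Pparg, the receptor of fat storage, was higher in RYGB than in BWm (log2 0.81 ± 0.18), with BWm as the departing group (log2 -1.39 ± 0.19), also without Sham AL replicate 4. Pdk4, which shuts glucose out of oxidation, missed the threshold (log2 -2.09 ± 0.61 SE, adjusted p = 0.05), and passed it without BWm replicate 4, Sham AL replicate 1 or Sham AL replicate 4.

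The liver makes fatty acids and keeps them as triglyceride in lipid droplets. Of fatty acid synthesis, 1 of 20 measured genes was higher in RYGB than in BWm and 1 was lower, beside 6.36% of all genes called in either direction, with 4 called without Sham AL replicate 4. Fasn, fatty acid synthase, lay at log2 0.85 ± 0.30 SE, adjusted p = 0.11 and Srebf1 at log2 0.20 ± 0.40 SE, adjusted p = 0.86, and both genes had lower means in RYGB (log2 -0.93 ± 0.28 and log2 -1.14 ± 0.37) and BWm (log2 -1.79 ± 0.31 and log2 -1.34 ± 0.41) than in Sham AL. Fasn was called between RYGB and BWm without Sham AL replicate 5. Scd1, above, and Elovl1, an elongase (log2 0.85 ± 0.12, neither departure), were the called genes. Of lipid droplet genes, 2 of 23 measured genes were higher in RYGB than in BWm and 3 were lower (21.7% called), with departures of RYGB alone for 2, BWm alone for 1 and neither group for 2. Plin4, a droplet coat protein, was lower (log2 -1.42 ± 0.32) than in BWm, with RYGB at log2 -1.84 ± 0.30 from Sham AL, and lost its call without BWm replicate 2 or 3 (adjusted p as high as 0.055). Its departure of RYGB was called in all 15 leave-out fits. By the mean of the droplet list, Sham AL replicate 4 lay at 1.07, against 0.03 to 0.34 on the group's other arrays. For fatty acid synthesis it lay at 0.60, against -0.11 to 0.53. That array, with its adrenal and brown fat markers, raised the Sham AL mean of both lists. Its part in the Sham AL levels of Fasn and Srebf1 was not tested. Plin3 was log2 0.95 ± 0.13 higher with neither departure. For Plin3 the departing group changed without replicate 2 or 3 of BWm or replicate 1 of RYGB. Apoa5, which activates triglyceride clearance (log2 -1.13 ± 0.19 SE, adjusted p = 0.0013), was the 1 gene called of the 22 on the lipoprotein list. That is 4.55%, against 6.36% of all genes, and 2 were called without Sham AL replicate 4.

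The liver releases glucose between meals, and insulin restrains that release. Of gluconeogenesis and glycogen genes, 0 of 22 measured genes were higher in RYGB than in BWm and 6 were lower, with departures of RYGB alone for 0, BWm alone for 4 and neither group for 2, and the BWm mean was the farther one for all 6. Pck1, the committing enzyme, was log2 -0.50 ± 0.12 SE, adjusted p = 0.012 between RYGB and BWm, with BWm at log2 0.59 ± 0.12 and RYGB at log2 0.09 ± 0.11. Its call was lost without BWm replicate 1 (adjusted p as high as 0.053). Slc37a4, the transporter that works with G6pc, was log2 -0.57 ± 0.12, with BWm alone departing. For Slc37a4 the departing group changed without replicate 2 or 3 of BWm or replicate 2 or 4 of Sham AL. Irs2, an insulin receptor substrate that fasting induces, measured 6.10, 6.70, 6.60, 7.08 and 6.95 on the 5 Sham AL arrays and 8.32, 8.71, 8.59 and 8.03 on the 4 BWm arrays. Irs2 ran from 6.60 to 7.66 (median 7.22) on the 6 RYGB arrays. All BWm arrays lay above all others, and the RYGB and Sham AL arrays overlapped (log2 -1.25 ± 0.21 SE, adjusted p = 0.0012; BWm log2 1.73 ± 0.22, RYGB log2 0.48 ± 0.20). Foxo1, the factor that insulin restrains, followed (log2 -0.81 ± 0.12 SE, adjusted p = 0.00044), with BWm at log2 0.62 ± 0.12, not called without BWm replicate 3. In all, 5 of 17 insulin signalling genes were lower in RYGB and 1 higher, the latter being Trib3, with departures of RYGB alone for 2, BWm alone for 2 and neither group for 2. Ppargc1a, the coactivator of fasting programmes, was lower in RYGB (log2 -0.75 ± 0.20), with the call lost without BWm replicate 1, 2 or 3 or RYGB replicate 2 or 5 (adjusted p as high as 0.14). Its departing group was BWm alone, though not without BWm replicate 2. Socs2, a target of growth hormone, was the 1 gene called of 19 on the growth hormone and IGF list (5.26%, against 6.36% of all genes). It differed by log2 -1.19 ± 0.31 SE, adjusted p = 0.027, with BWm alone departing. The list's count was 0 without replicate 3 of BWm or replicate 5 or 6 of RYGB and 3 without replicate 4 of Sham AL. Socs2 was not called without BWm replicate 2 or 3 or RYGB replicate 1, 5 or 6 (adjusted p as high as 0.11). Igfbp1 did not pass between RYGB and BWm (log2 -0.65 ± 0.28 SE, adjusted p = 0.22), with means of 9.18, 9.83 and 7.59 in RYGB, BWm and Sham AL.

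Where a departure of a clock gene was called, it was that of BWm alone. Of 18 measured, 3 were higher and 5 lower in RYGB than in BWm, BWm alone departed for 6 and neither group for 2, and the BWm mean was the farther one for all 8. The count was 5 without BWm replicate 2 or RYGB replicate 2 and 3 without BWm replicate 3. Cry1, a repressor within the clock, measured 5.56, 5.29, 5.41, 5.56 and 5.59 on the 5 Sham AL arrays and 6.63, 7.21, 7.21 and 6.69 on the 4 BWm arrays. Cry1 ran from 4.81 to 6.06 (median 5.18) on the 6 RYGB arrays. The BWm arrays lay above all others (log2 -1.65 ± 0.20 SE, adjusted p = 8.8e-05), BWm at log2 1.45 ± 0.20 and RYGB at log2 -0.20 ± 0.18 from Sham AL. Nfil3, a repressor of clock output, lay in the same direction (log2 -0.95 ± 0.18 SE, adjusted p = 0.0028; BWm log2 1.09 ± 0.18), and Nr1d1 (REV-ERBα) in the opposite one (log2 0.82 ± 0.18 SE, adjusted p = 0.0074; BWm log2 -0.87 ± 0.18). Arntl (BMAL1; log2 -1.39 ± 0.37), Dbp (log2 0.88 ± 0.22) and Bhlhe41 (log2 0.67 ± 0.18) were called over all arrays, with BWm alone departing, but not in 6, 3 and 3 of the 15 leave-out fits, with an adjusted p as high as 0.13, 0.095 and 0.095. Their departing group changed in 5, 6 and 2 of those fits, which for Arntl and Dbp include the fits without Sham AL replicate 2, 3 or 5. For Nr1d1 the departing group changed without replicate 2 of BWm. Each mouse gives 1 time point at an unstated hour, so the phase of the clock was not measured. The E-box CACGTG, the site of BMAL1 and CLOCK, was in 5 of 17 clock promoters (29.4%) against 7.85% of all promoters, in the same 250 bases. The pair below was called in opposite directions and both hold an E-box, in capitals.
Cry1 (chr10:85185084-85185139, minus strand): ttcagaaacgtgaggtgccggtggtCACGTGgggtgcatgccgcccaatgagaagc
Bhlhe41 (chr6:145865543-145865598, minus strand): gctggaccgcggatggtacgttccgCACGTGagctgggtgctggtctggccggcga
Cry1 was higher and Bhlhe41 lower in BWm than in Sham AL, so the same letters stand before genes called in opposite directions.

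**Figure D5:**
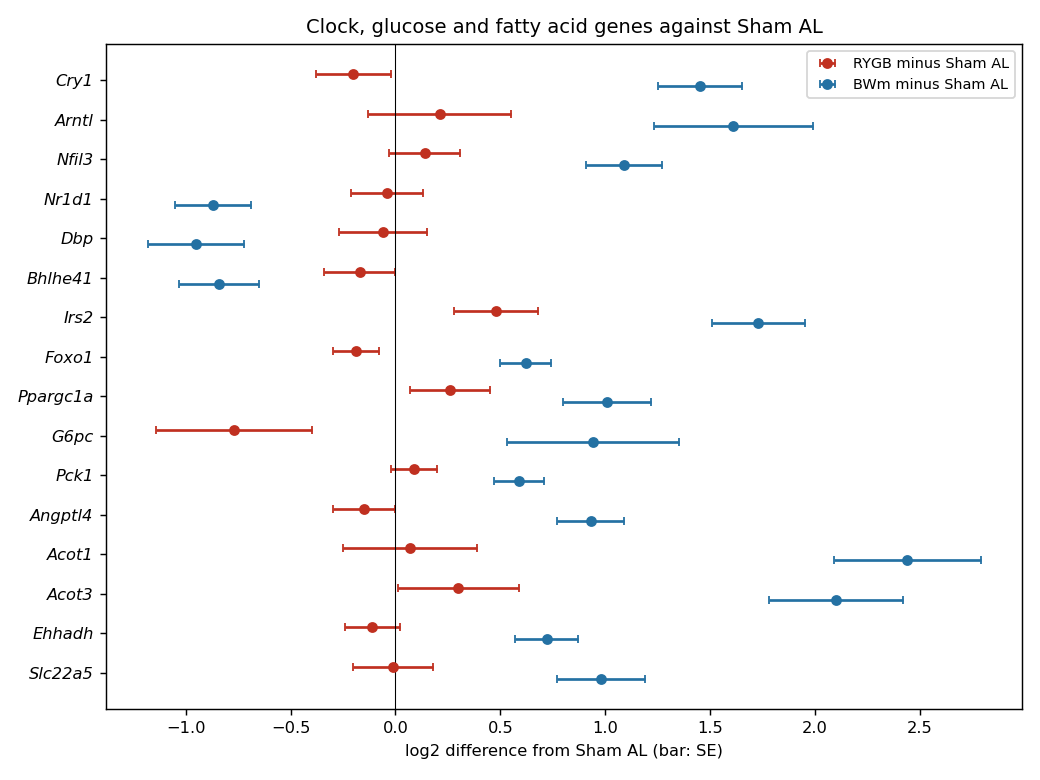
Log2 difference from Sham AL, with its SE as a bar, of 16 clock, glucose and fatty acid genes for RYGB (red) and BWm (blue). Acot1 stands at 2.44 in BWm and 0.07 in RYGB, Irs2 at 1.73 and 0.48, and Dbp at -0.95 and -0.06.

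Amino acid catabolism, bile acid and drug metabolism genes were mostly lower in RYGB than in BWm where they were called. Of amino acid catabolism and urea cycle genes, 0 of 40 measured genes were higher in RYGB than in BWm and 8 were lower, with the BWm mean farther from Sham AL for 6 of the 8. Aass, which breaks down lysine, was log2 -0.71 ± 0.12 SE, adjusted p = 0.0013 with BWm alone. The mean of the list was lower on all 6 RYGB arrays (-0.28 to 0.05) than on all 4 BWm arrays (0.10 to 0.21). The mean of the hepatocyte markers, given above, separated the groups in the same direction, and its part in these differences was not tested. Of those 14 markers, 2 were called, both lower in RYGB. They were Pck1 and Cyp3a11, which also stand among the glucose and drug metabolism genes here, while Alb overlapped between the groups. That mean is thus not a measure of hepatocyte content alone. Among bile acid synthesis genes 1 of 17 was higher and 3 lower, and the 4 calls were 2 without BWm replicate 1, 2 or 3 or RYGB replicate 3, 4 or 6. Cyp7a1, the rate-limiting enzyme, lay at log2 0.11 ± 0.33 SE, adjusted p = 0.92 and Cyp8b1 at log2 -0.75 ± 0.38 SE, adjusted p = 0.31, and Slc27a5, which activates bile acids, at log2 -0.68 ± 0.13 SE, adjusted p = 0.0032. Nr0b2 (SHP), the repressor that bile acids induce, lay at log2 -0.07 ± 0.28 SE, adjusted p = 0.94 and the bile salt pump Abcb11 at log2 0.20 ± 0.15 SE, adjusted p = 0.55. Of xenobiotic cytochromes, 0 of 33 measured genes were higher in RYGB than in BWm and 6 were lower, with 3 called without BWm replicate 3 and departures of RYGB alone for 3, BWm alone for 1 and neither group for 2. Cyp2c37 and Cyp3a44 (log2 -0.94 ± 0.14) were departures of RYGB in all 15 leave-out fits, and Cyp3a11 (log2 -0.88 ± 0.22) lost its call without BWm replicate 1, 3 or 4 (adjusted p as high as 0.063). Ugt2b35, a glucuronosyltransferase (log2 1.35 ± 0.15 SE, adjusted p = 5.3e-05), and Sult1d1, a sulfotransferase (log2 -0.89 ± 0.15 SE, adjusted p = 0.0015), were departures of BWm in opposite directions. Cytochromes of 1 family can share probe signal.

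Genes that are higher in male than in female mouse liver did not have 1 level among the RYGB mice. Of 22 on that list, 1 was lower in RYGB than in BWm and 0 higher (4.55% called, against 6.36% of all genes). The count was 2 without RYGB replicate 1 and 0 without BWm replicate 3. By the list mean RYGB replicates 1 and 2 lay at 0.75 and 0.42, RYGB replicates 3 to 6 between -1.13 and -0.66, BWm replicate 2 at -0.77 and the other 3 BWm arrays between 0.09 and 0.35. The labels number RYGB replicates 1, 2 and 3 under 50, like 1 Sham AL and 0 BWm mice, without saying what the animal number stands for. The split of the list mean did not match that number, with RYGB replicate 3 at -0.75 and all Sham AL arrays at 0.21 to 0.71. With the 3 RYGB mice numbered above 60 alone, the list median was log2 -0.57 in place of -0.14 and 5 of its genes were called. The median of female-predominant genes was 0.02 in place of -0.17, and that of fatty acid synthesis -0.14 in place of 0.10. In that setting 1106 genes were called in all. It left 19 calls in place of 29 in ER-Golgi transport, 5 in place of 8 clock genes, 5 in place of 8 genes of replication and mitosis, 4 in place of 8 proteasome subunits and 3 in place of 6 interferon-stimulated genes. The glutathione S-transferase, sterol and zinc lists each had 3 in place of 5, and mitochondrial oxidation had 1 in place of 3. With 3 RYGB arrays in place of 6, fewer genes pass at the same difference. The list median was log2 0.44 in place of 0.45 for ER-Golgi transport and -0.02 in place of -0.06 for clock genes. It was 0.46 in place of 0.43 for replication and mitosis, 0.32 in place of 0.27 for the proteasome and 0.28 in place of 0.25 for interferon-stimulated genes.

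Where keratins and genes of injured epithelium were called, they were higher in RYGB than in BWm. Of 29 measured, 11 were higher and 0 lower, with departures of RYGB alone for 2, BWm alone for 6, both groups, in opposite directions, for 1 and neither group for 2. Krt18 (log2 1.57 ± 0.16 SE, adjusted p = 2.7e-05) and its partner Krt8 (log2 1.44 ± 0.17), the keratins of hepatocytes, were lower in BWm than in Sham AL (log2 -0.98 ± 0.17 and log2 -0.95 ± 0.18), and Krt18 was called in both groups without RYGB replicate 1. Krt19, the keratin of bile ducts, lay at log2 0.17 ± 0.09 SE, adjusted p = 0.33. Of genes of DNA replication and mitosis, 7 of 32 measured genes were higher in RYGB than in BWm and 1 was lower, with departures of RYGB alone for 0, BWm alone for 5 and neither group for 3. The licensing helicase genes Mcm6 (log2 1.47 ± 0.22 SE, adjusted p = 0.00042), Mcm2 (log2 1.03 ± 0.14 SE, adjusted p = 0.00019) and Mcm5 (log2 0.97 ± 0.18) departed in BWm, at log2 -0.91 ± 0.22, log2 -0.61 ± 0.14 and log2 -0.75 ± 0.18 from Sham AL. Those departures were lost in 7, 4 and 7 of the 15 leave-out fits, among them the fits without BWm replicate 2 or 3. Ccnd1, cyclin D1, was log2 1.28 ± 0.28 higher with neither departure, and Tk1, thymidine kinase, was the 1 gene lower (log2 -0.99 ± 0.18). Of interferon-stimulated genes, 6 of 30 measured genes were higher in RYGB than in BWm and 0 were lower, with departures of RYGB alone for 1, BWm alone for 4 and neither group for 1. Isg15 measured 5.79, 5.88, 5.59, 5.84 and 6.14 on the 5 Sham AL arrays and 5.24, 5.05, 4.37 and 5.16 on the 4 BWm arrays. Isg15 ran from 5.92 to 6.37 (median 6.08) on the 6 RYGB arrays, with the BWm arrays below all others. RYGB minus BWm was log2 1.15 ± 0.16 SE, adjusted p = 0.00026, and BWm lay at log2 -0.89 ± 0.16 from Sham AL. Usp18, which removes ISG15 from proteins (log2 1.16 ± 0.14 SE, adjusted p = 0.00011), departed in RYGB alone, with BWm called too without RYGB replicate 5.

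Of acute phase genes, 6 of 29 measured genes were higher in RYGB than in BWm and 1 was lower, with departures of RYGB alone for 2, BWm alone for 1 and neither group for 4. Besides Cd14, Apcs (serum amyloid P) departed in RYGB (log2 1.45 ± 0.30 SE, adjusted p = 0.0054), and Lcn2 (lipocalin 2; log2 1.52 ± 0.34) and Orm2 (log2 1.62 ± 0.42) in neither group, the latter not called without BWm replicate 3 or 4 or RYGB replicate 4, 5 or 6 (adjusted p as high as 0.12). For Lcn2 the departing group changed without replicate 1 of RYGB. For Orm2 the departing group changed without replicate 1 of RYGB. By the mean of the acute phase list, RYGB replicates 1 and 2 lay at -0.13 and 0.03 and the other 4 between 0.36 and 0.42, against -0.28 to 0.02 in BWm. Complement and coagulation genes had 0 of 31 called by limma, with 6 at an unadjusted p under 0.05, and 1 called without RYGB replicate 1. Inflammatory signalling had 5 of 25 higher and 0 lower, and the count was 2 without replicate 2 or 3 of BWm and 3 without replicate 4, 5 or 6 of RYGB. Icam1, an adhesion molecule (log2 0.74 ± 0.13 SE, adjusted p = 0.0016), and the receptor Tnfrsf12a (log2 1.01 ± 0.19 SE, adjusted p = 0.0035) led the list. The departing group was RYGB alone for both, for Icam1 not in 8 of the 15 leave-out fits. Zinc genes had 5 of 15 higher and 0 lower, all of them transporters such as Slc39a7 (log2 0.80 ± 0.12 SE, adjusted p = 0.00054), while the metallothionein Mt1 did not pass (log2 -0.04 ± 0.20 SE, adjusted p = 0.96). The zinc count was 2 without BWm replicate 1 or 2 or RYGB replicate 4 and 3 without BWm replicate 3 or 4, replicate 2, 3 or 5 of RYGB, or 1 or 2 of Sham AL. Of 22 iron genes, 1 was higher and 3 were lower. Besides Hamp2 they included Tfrc, the transferrin receptor (log2 1.25 ± 0.25 SE, adjusted p = 0.0046, neither departure), and Atoh8, a regulator of hepcidin (log2 -0.85 ± 0.15 SE, adjusted p = 0.0014, BWm alone).

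The marker lists of the other liver cells held 0 to 3 called genes each. The share called was 5.88% for Kupffer cell and for sinusoidal endothelial markers and 6.67% for neutrophil markers, against 6.36% of all genes. It was 9.09% for stellate and matrix markers and 17.6% for recruited macrophage markers. Kupffer cell markers had 1 of 17 higher, Cd68 (log2 0.72 ± 0.17), not called without BWm replicate 3 or 4 (adjusted p as high as 0.058), and the count was 0 without replicate 3 or 4 of BWm, 2 without replicate 3 of Sham AL and 3 without replicate 1 of BWm or replicate 1 of RYGB. Markers of recruited macrophages had 3 of 17 higher, Mmp12, Lgals3 (log2 1.02 ± 0.16) and Cd9 (log2 0.78 ± 0.20), and 5 were called without RYGB replicate 3. BWm alone departed for Lgals3, a class that changed in 10 of the 15 leave-out fits, and neither group for Cd9. Cd9 was not called without BWm replicate 3 or 4 or RYGB replicate 5 or 6 (adjusted p as high as 0.094). Of 15 neutrophil markers 1 was higher, Lcn2, and the count was 2 without replicate 2 or 3 of RYGB and 3 without replicate 1 of RYGB. S100a8 lay at log2 1.0 ± 0.31 SE, adjusted p = 0.064. The mean of the recruited macrophage markers, relative to all arrays, ranged over -0.14 to 0.56 in RYGB, -0.48 to -0.03 in BWm and -0.35 to 0.31 in Sham AL. That of the neutrophil markers ranged over -0.19 to 0.69, -0.27 to 0.01 and -0.27 to 0.03, highest on RYGB replicates 4, 5 and 6. With only the 3 RYGB mice numbered above 60, 7 of 15 neutrophil markers, 7 of 17 recruited macrophage markers, 4 of 17 sinusoidal endothelial markers, 2 of 17 Kupffer cell markers and 1 of 8 class II genes were called. The part of these cells in the acute phase and inflammatory differences was not tested. T and NK cell, B cell, MHC class II and bile duct markers had 0 called of 16, 11, 8 and 10 by limma, with 0, 1, 4 and 1 at an unadjusted p under 0.05, and 1 class II gene was called without RYGB replicate 3. Sinusoidal endothelial markers had 1 of 17 lower, Fcgr2b (log2 -0.44 ± 0.12), and 0 without BWm replicate 1, 3 or 4, replicate 3, 4, 5 or 6 of RYGB, or 2 of Sham AL. Stellate and matrix markers had 2 of 22 higher, Col4a1 (log2 0.62 ± 0.17) and Timp1 (log2 0.63 ± 0.16), and the count was 0 without replicate 1 or 3 of BWm or replicate 5 or 6 of RYGB, 1 without replicate 2 or 4 of BWm or replicate 2 or 4 of RYGB and 4 without replicate 4 of Sham AL.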

How the data were processed

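Liver RNA of each mouse was hybridised to 1 GeneChip Mouse Gene 2.0 ST array (6 RYGB, 5 Sham AL and 4 BWm). Per the labels' design text, the authors ran all 15 arrays through RMA (robust multi-array averaging, which corrects background and normalizes by quantiles) in Expression Console 1.4.1.46, and the deposited values are log2 signals per transcript cluster. No source used here gives the annotation version. Per the same text, the authors compared groups by analysis of variance with an unadjusted p under 0.05 and at least 1.5-fold. Nothing is said of litters or batches, so p-values measure the spread between these mice. The number of arrays limits the precision of every value.

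Of 41345 clusters, 23521 have 1 gene symbol, 1814 several and 16010 none in the platform annotation, and 23328 of the first were found in RefSeq. Where several clusters name a gene (1082 genes), the brightest on average was kept. This gave 22180 genes, with no filter on level. Differences, SEs and two-sided p-values came from limma 3.58.1 (lmFit and eBayes) in R 4.3.3. The fit over 15 arrays had 12 residual and 5.85 prior degrees of freedom, and p-values were adjusted by Benjamini-Hochberg over all genes. A departing group was called at an adjusted p under 0.05 against Sham AL. The fit was tested on simulated data, with 200 of 22180 genes changed between RYGB and BWm.

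The comparison, its genes and the gene lists were chosen with earlier results of these data known. Among genes called between RYGB and BWm, the naming rule took the 20 largest rises, the 20 largest falls and the 8 largest differences in each class of departing group. It left out predicted genes, clone names, olfactory and vomeronasal receptors and Mup genes. It added, called or not, the 3 members of each list with the smallest p and a set of metabolic genes. Acot4, Alb, Asns, Bhlhe41, Ccnd1, Creld2, Dbp, Dnajb9, Dnajc3, Gclc, Hmgcs1, Hsp90b1, Krt8, Manf, Mcm5, Msmo1, Mt1, Nqo1, Pdia6, Pparg, Ppargc1a and Psat1 fall outside it and were chosen after their values were seen.

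Alternatives were the level filter, the normalization, the choice of clusters, the arrays in the fit, the variance prior, array weights, the replicate number or the animal number as a block, the authors' test, the threshold of a departure, and leaving out each array. Promoters came from RefSeq (GRCm38.p6), and the 250 bases before the start site were searched.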

Additional observations from a re-analysis of the deposited data

Results flagged for a closer look

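Of 459 sets of values (a named gene in 1 group of 4 to 6 arrays), 29 held an array farther from the others of its group than Dixon's 95% limit allows, and chance flags about 1 in 20 such sets. Values are log2 signals, each followed by that of the nearest other array of the group.

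BWm replicate 1 held the highest value of its group for Hsp90b1 (11.34 against 10.91), Manf (4.68 against 4.16) and Nupr1 (6.14 against 5.03) and the lowest value of its group for Ppara (9.00 against 9.13). BWm replicate 2 held the lowest value of its group for Cyp2c37 (10.42 against 10.59) and Cyp8b1 (8.85 against 9.57). BWm replicate 3 held the highest value of its group for Gclc (9.80 against 9.49). BWm replicate 4 held the highest value of its group for Pdk1 (7.60 against 7.14). RYGB replicate 1 held the highest value of its group for Bhlhe41 (5.82 against 4.82) and the lowest value of its group for Atf4 (7.45 against 7.66), Elovl1 (7.47 against 7.73), Ostc (8.10 against 8.56), Pgd (8.12 against 8.80) and Slc7a11 (4.29 against 6.08). RYGB replicate 2 held the highest value of its group for Mcm2 (6.35 against 5.80). RYGB replicate 3 held the highest value of its group for Arntl (6.29 against 4.90), Psmd14 (6.56 against 6.07) and Sult1d1 (9.96 against 9.43) and the lowest value of its group for Angptl4 (8.23 against 8.70). RYGB replicate 5 held the lowest value of its group for Mfsd2a (6.99 against 8.62), Pck1 (11.25 against 11.61) and Usp18 (7.40 against 7.87). RYGB replicate 6 held the lowest value of its group for Nfe2l2 (8.27 against 8.67). Sham AL replicate 3 held the highest value of its group for Cd68 (9.33 against 8.63) and the lowest value of its group for Atf4 (7.02 against 7.35). Sham AL replicate 4 held the highest value of its group for Pgd (9.01 against 8.04) and Sqle (5.66 against 4.47) and the lowest value of its group for Acot12 (9.10 against 9.48). Sham AL replicate 5 held the highest value of its group for Slc22a5 (7.01 against 6.47). The most came from RYGB replicate 1, with 6. Without that array, 1445 genes were called between RYGB and BWm, and 231 of them departed in RYGB alone, 355 in BWm alone and 24 in both.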

How the results depend on the processing

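Counts of calls and departures were recomputed under each alternative. For RYGB against BWm (1411 genes) the count moved by over 1.5 times under the replicate block (903), the methods' one-way ANOVA at p under 0.05 and 1.5-fold (857) or after Benjamini-Hochberg (833), and with 1.5-fold added to the adjusted p (769). For RYGB against Sham AL (306) it moved with all clusters tested (169), the replicate block (174) and the ANOVA after Benjamini-Hochberg (54), and for BWm against Sham AL (629) with a mean level of at least 5 (1046), the replicate block (325) and that ANOVA (90). Leaving out 1 array gave 930 to 1544, 144 to 398 and 284 to 646 genes for these comparisons.

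The departing groups shifted more. RYGB alone (165) became 91 with all clusters, 95 with the replicate block, 28 with the ANOVA after Benjamini-Hochberg, 392 at an unadjusted p and 485 by the farther mean. BWm alone (392) became 648 with the level filter, 202 with the block, 257 and 53 with the ANOVA at its own thresholds and after Benjamini-Hochberg, 693 at an unadjusted p and 926 by the farther mean. Both groups (11) became 22 with RYGB animal numbers above 60, 5 with all clusters, 25 with the animal number as a block, 17 with array weights, 38 with the level filter, 6 with the replicate block, 26 and 0 with the ANOVA and 252 at an unadjusted p. Neither (843) became 416 with the ANOVA at its thresholds and 74 at an unadjusted p. The ranges over left-out arrays were 87 to 231, 178 to 390, 4 to 24 and 609 to 1019. BWm alone outnumbered RYGB alone in 32 of 32 settings. Whether the replicate numbers pair the mice is not stated. Over 13 same-numbered pairs the correlation of deviations across all genes ran from -0.17 to 0.19, with 3 over 0.1. Of 14 arrays, 2 correlated best with their own number. A pairing that acts on few genes would not show in these correlations.

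Single genes were compared in 28 alternative settings, which leave out those with a 1.5-fold limit. Of 139 called genes named in the text, 88 were called in all of these that tested them, and none changed direction. The most calls lost in 1 setting were 49, with the ANOVA after Benjamini-Hochberg. The most calls lost by 1 left-out array were 24, without BWm replicate 3. A sign changed only for genes that were not called: Cyp7a1 became -0.03 with the replicate block and -0.19 to 0.33 with a left-out array, Nr0b2 0.05 and -0.38 to 0.09, Mt1 0.02 with quantile normalization, 0.31 with the animal number block, 0.29 with RYGB animal numbers above 60 and -0.14 to 0.06 with a left-out array, Srebf1 -0.25 with that block, -0.35 with those numbers and -0.24 to 0.58 with a left-out array, Abcb11 -0.06 and Hamp 0.04 with those numbers. Median subtraction or quantile normalization changed the sign of 4 list medians, all within 0.04 of 0. The causes of these shifts were not tested. In simulated data with 200 of 22180 genes changed in RYGB, 1.5-fold changes against BWm were recovered in 47.8% of cases and 2-fold changes in 95.5%. There were 10 false calls. In the real data 1411 genes were called, and the adjusted threshold depends on how many genes change, so these rates hold for the simulated setting only. With 4 BWm arrays small differences can be missed, and signals near background limit folds of weakly expressed genes.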

Other observations

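Of 17 cytosolic heat shock genes, 3 were lower and 0 higher in RYGB (17.6% called, against 6.36% of all genes), and the count was 0 without replicate 2 of BWm and 1 without replicate 3 of BWm or replicate 5 of RYGB. Hspa1b, the inducible Hsp70, was log2 -1.63 ± 0.37 SE, adjusted p = 0.012, with BWm at log2 1.75 ± 0.39 from Sham AL, and it was not called without BWm replicate 2 (adjusted p as high as 0.058). For Hspa1b the departing group changed without replicate 2 or 3 of BWm or replicate 2 of Sham AL. Its near-identical neighbour Hspa1a (log2 -1.05 ± 0.28), not called without replicate 2 or 3 of BWm or replicate 3, 5 or 6 of RYGB, can share its probes. The direction was opposite to that of the ER chaperones, of which 19 of 25 were higher. The difference between these lists was not tested.

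Of 35 lysosome and autophagy genes, 3 were higher and 0 lower (8.57% called), with RYGB alone as the departing group for all 3, and the count was 1 without replicate 3 of BWm or replicate 5 or 6 of RYGB. They were Sqstm1, the protease Ctsl (log2 0.52 ± 0.14 SE, adjusted p = 0.038) and Tfe3, a factor of lysosome genes (log2 0.39 ± 0.10 SE, adjusted p = 0.029). For Ctsl the departing group changed without replicate 4, 5 or 6 of RYGB or replicate 1, 2 or 3 of Sham AL. For Tfe3 the departing group changed without replicate 4 of RYGB or replicate 2 or 5 of Sham AL. Of 21 glycolysis and fructose genes (9.52% called), Pdk1, a kinase that restrains pyruvate oxidation, was lower in RYGB (log2 -0.74 ± 0.13 SE, adjusted p = 0.0019, RYGB alone) and Tkfc, which phosphorylates glyceraldehyde from fructose, higher (log2 0.41 ± 0.11 SE, adjusted p = 0.036, BWm alone), and the count was 1 without replicate 1, 2 or 3 of BWm or replicate 2, 4, 5 or 6 of RYGB and 4 without replicate 4 of Sham AL. For Pdk1 the departing group changed without replicate 2 of Sham AL. For Tkfc the departing group changed in 9 of the 15 leave-out fits. Of 16 pancreas and gut markers, 0 were called by limma and 1 had an unadjusted p under 0.05. Of 35 respiratory chain genes, 0 were higher and 2 were lower (5.71% called, against 6.36% of all genes). Their count was 0 without replicate 1, 2 or 4 of BWm or replicate 6 of RYGB and 1 without replicate 1, 2, 4 or 5 of RYGB.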
